A study of Mus musculus with 4 samples.

Results

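Cytosolic ribosomal protein genes were followed in crypt epithelium of the mouse jejunum with and without the transcription factor YY1. The members were all genes whose annotated symbol begins with Rpl or Rps and a digit, or with Rplp, or is Rpsa, without Rps6k kinases and pseudogenes. They were 50 of the 18193 genes that had a probe set of their own on the array, a probe set being a group of short oligonucleotides that report on the same transcript. Each gene was read with its probe set of highest mean. Large subunit symbols made up 26 members and small subunit symbols 24. The rule also took in 6 paralogs of standard ribosomal proteins (Rpl3l, Rpl7l1, Rpl22l1, Rpl39l, Rps4l and Rps27l) and Rps19bp1, which encodes a protein that binds RPS19 and is not itself a ribosomal protein. Of 89 protein-coding genes that RefSeq lists under the same symbols, 40 had no probe set of their own, Rpl3, Rpl5, Rplp1, Rpl10, Rpl10l, Rpl30, Rpl32, Rpl36a and Rpl36al among them, and 31 of the 40 shared probe sets with other genes.

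The cytosolic ribosome joins a small subunit, which reads the mRNA, and a large subunit, which forms the peptide bond. Its proteins are made in near-equal amounts, assembled on rRNA in the nucleolus with the help of many assembly factors, and encoded by short, highly transcribed genes whose mRNAs start with a run of pyrimidines. Dividing crypt cells need many ribosomes. YY1 is a zinc finger factor that binds many promoters and was also isolated as a protein that binds sites just downstream of the start of the mouse genes Rpl30 and Rpl32.

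The knockout group comprised 2 arrays of Yy1 f/f; Vil-Cre-ERT2 mice. The alleles of Yy1 are floxed, and the Villin promoter, active in intestinal epithelium, drives a Cre recombinase that tamoxifen switches on. The control group comprised 2 arrays, whose genotype and Cre status the sources used here do not give. The labels describe both groups as of a background enriched for C57BL/6J and name 4 days of tamoxifen on all arrays, without saying whether controls received it. Effects of Cre-ERT2 or tamoxifen therefore cannot be told apart from those of the loss of YY1. The labels call the replicates biological and do not say how many mice each array represents.

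YY1 recognises the core AAGATGGC. On either strand, these letters stood in the promoter window, from 250 bases before to 50 after the RefSeq start, of 4 of the 44 members with a window (9.09%), against 3.19% of all 27025 genes with one. The sites are shown because YY1 is the deleted factor, as 30 bases of RefSeq sequence in GRCm38.p6 read along the gene's strand, with the core in capitals. A match describes the letters and not a bound site.
Rpl13a, chr7:45128699-45128728, minus strand, core starting at position 29: ggcggctgccgAAGATGGCggaggggcagg
Rpl7l1, chr17:46782617-46782646, minus strand, core starting at position 22: gaagcaccggaAAGATGGCggaggaagggt
Rps27, chr3:90213704-90213733, minus strand, core starting at position -74: aagaccttccgAAGATGGCgaagcaacacg
Rpl22, chr4:152324271-152324300, plus strand, core on the opposite strand starting at position -154: ctggaatatctGCCATCTTccagccacggg

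In Rpl13a and Rpl7l1 the core lay downstream of the start, counted from 1 at the first transcribed base. Of these 4 genes, Rps27 was called higher in the knockout with its brightest probe set, the others were not, and the promoters of the mitochondrial ribosomal proteins held the core in 12 of 69 (17.4%). The E-box CACGTG, a palindrome bound by MYC, was in 4 of 44 member windows (9.09%) and in 8.09% of all, a like share. The letters CTTT on the gene's strand, within 20 bases of the start, were in 15 of 44 member windows (34.1%) and in 18.2% of all. The next lines show 15 bases on each side of the start of 3 members, with CTTT in capitals, as examples of the pyrimidine-rich starts of the family.
Rpl12, chr2:32961697-32961726, plus strand: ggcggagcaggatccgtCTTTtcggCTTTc
Rps6, chr4:86857353-86857382, minus strand: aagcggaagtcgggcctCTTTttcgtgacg
Rpl35, chr2:39005117-39005146, minus strand: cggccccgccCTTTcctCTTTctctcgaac

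Values below are linear intensities. A log2 difference is the knockout mean less the control mean of log2(intensity + 16), with its moderated SE from limma (n = 2 arrays in each group). This SE draws on the spread of all genes or probe sets in the fit and is not the gene's own spread between replicates alone. Genes were called at an adjusted p under 0.05, by limma with Benjamini-Hochberg adjustment over all genes. Yy1 itself had 69.4 and 68.1 in knockout arrays, against 1648 and 1681 in control arrays (log2 -4.31 ± 0.09, adjusted p = 1.04e-05 by limma). Array medians were 139 to 143, and 27 bacterial control probe sets, taken as a measure of background, had medians of 31.9 to 35.6. The 12 crypt epithelium markers had summed intensities of 52892 and 58956 in knockout and 63401 and 65285 in control arrays. Of these 12, 0 rose and 3 fell (Olfm4, Cdx2 and Vil1, 25%), against 13.4% and 10.9% of all genes. The stem cell marker Lgr5 was dim (59.6 to 69.2). Mki67, a marker of dividing cells, had 5820 and 5995 in knockout arrays, against 4646 and 4912 in control arrays (log2 0.31 ± 0.10, adjusted p = 0.0599 by limma). Enterocyte markers were lower in sum (32777 and 46417 in knockout, 61938 and 61354 in control arrays), with 5 of 8 genes lower (62.5%). The 10 immune markers summed to 1364 and 1524 in knockout, against 1739 and 1798 in control arrays, with 2 genes lower (20%). The 9 mesenchyme markers summed to 1492 and 1311, against 1521 and 1729, with 2 genes lower (22.2%). The 5 endothelium markers summed to 454 to 455 in knockout and 446 to 470 in control arrays, and the 2 erythroid markers to 255 to 258 and 251 to 273, with 0 called. Some markers lay near or below the background medians, such as Tek (16.6 to 32.4) and Cd79a (35.6 to 40.4), and do not show that their cell type was present. As a sign of RNA quality, the Gapdh probe set at the 3' end exceeded that at the 5' end by 1.68 ± 0.0438 on the log2 scale in knockout and by 1.42 ± 0.0316 in control arrays (SD). For Actb the groups lay closer, with 0.313 ± 0.0262 in knockout and 0.260 ± 0.0255 in control arrays (SD). These differences go along with all results below, and their part in them was not tested.

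Of the 50 ribosomal protein genes 10 passed the test as higher in knockout crypts, 0 passed as lower and 40 did not pass, and most differences were small and above 0. The log2 difference was above 0 in 45 of 50 members, against 9453 of all 18193 genes. Its median was 0.16 in members, against 0.01 over all genes. Both knockout arrays lay above both control arrays in 39 members (78%), against 32.7% of all genes, and below both in 2, against 29.3%. The 10 members called higher were 20%, against 13.4% of all genes, and the 0 called lower stood against 10.9%. At an unadjusted p under 0.05 limma counted 18 of the 50 members as higher, against 3485 of 18193 genes (19.2%). It counted 0 members as lower, against 2965 genes (16.3%). At least 1.5-fold were 5 of the 10 (10% of members), against 6.9% of all genes, with 0 lower, against 6.28%. Under each of these rules the lower calls numbered 0, and the differences mostly had the same sign. The median member exceeded the control mean by 0.15 on the log2 scale in the first knockout replicate, and the other replicate had 0.20. In bulk RNA, a changed share of dividing or absorptive cells cannot be told apart from a change per cell. The number of higher calls, out of 50 members, rests on the estimate of spread and on single arrays. With a trended and robust prior limma gave 24 of 50, against 14.5% of all genes. Without moderation it gave 0, where 2 of all 18193 genes were called. At an unadjusted p under 0.05 limma without moderation counted 23 of 50 members as higher, against 13.6% of all genes. Leaving out the first knockout array gave 5 (8.02% of all genes), leaving out the first control array 5 (7.26%) and the other control array 4 (6.26%), and with the mean of all probe sets of each gene it gave 19 (13.3%).

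**Figure D1:**
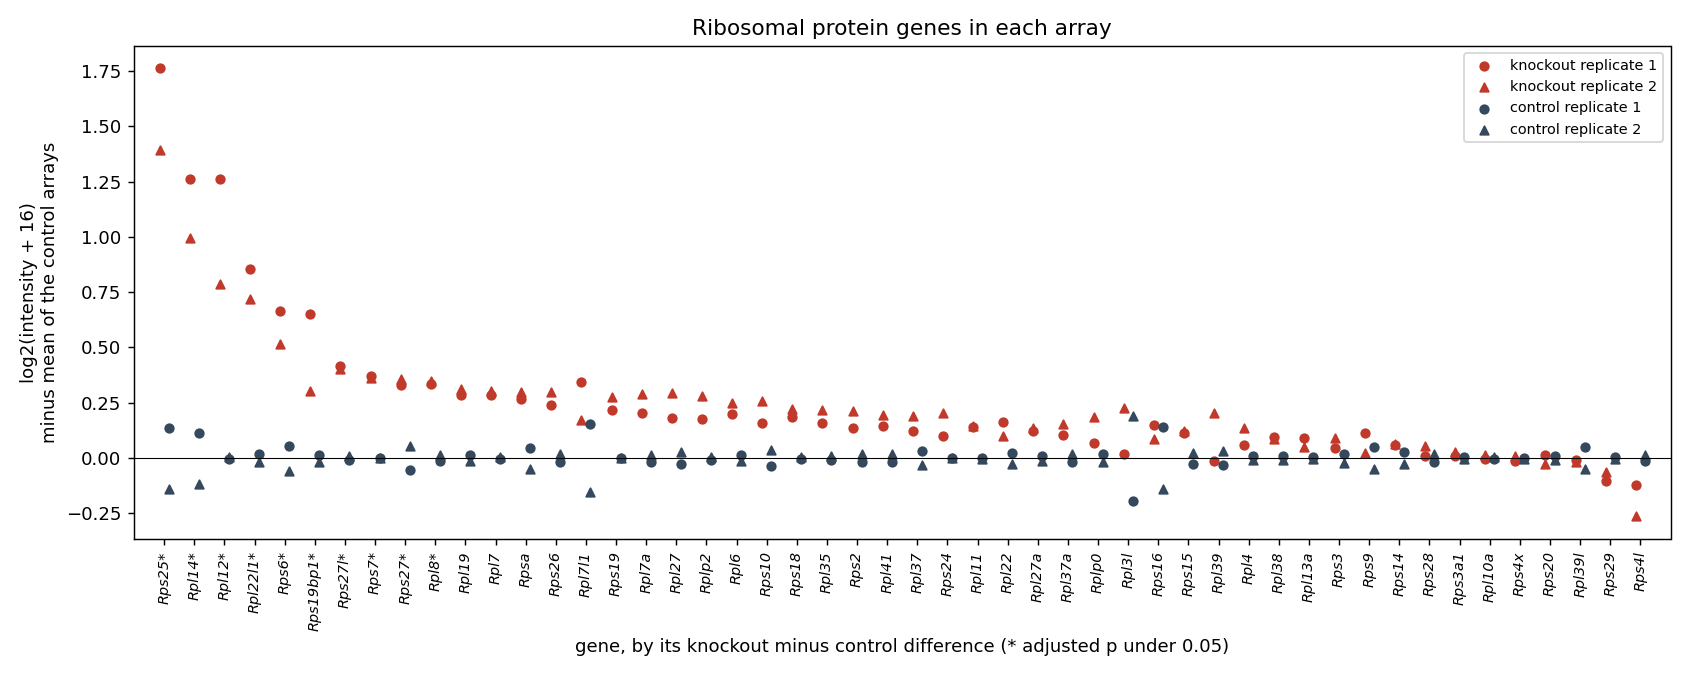
Log2(intensity + 16) of the 50 ribosomal protein genes minus the mean of the control arrays (vertical axis), one column per gene and one point per array, with knockout points left of control points and an asterisk at genes with an adjusted p under 0.05. Both knockout arrays lie above both control arrays in 39 genes, and 4 genes on the left stand well above the rest.

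Both subunits held members that rose. Of 26 large subunit members 4 rose (15.4%, median 0.16), and of 23 small subunit members without Rps19bp1 5 rose (21.7%, median 0.15). Both knockout arrays were above both controls in 22 (84.6%) and 16 (69.6%) of them, against 32.7% of all genes. Without the 6 paralogs and Rps19bp1, 7 of 43 standard ribosomal protein genes rose (16.3%) and 0 fell (median 0.16). The shares called higher are near the 13.4% of all genes called higher.

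The largest rise was that of Rps25, a protein of the small subunit head needed for initiation at certain viral and cellular internal entry sites. Its probe set had 1519 and 1173 in knockout arrays, against 482 and 395 in control arrays, a 3.07-fold difference of the means (log2 1.58 ± 0.15, adjusted p = 0.00115 by limma). Every knockout value was above every control value, and the gap between groups exceeded that within them. Rpl14, a large subunit protein, had 1239 and 1029 in knockout arrays, against 552 and 468 in control arrays (log2 1.13 ± 0.13, adjusted p = 0.00202 by limma). Rpl12, which sits at the base of the stalk that recruits elongation factors, had 804 and 574 in knockout arrays, against 325 and 327 in control arrays (log2 1.03 ± 0.16, adjusted p = 0.00474 by limma). The knockout arrays of Rpl12 differed more from each other than the controls did, and still did not overlap with them. Rpl22l1, a paralog of the large subunit protein Rpl22, had 2692 and 2452 in knockout arrays, against 1503 and 1462 in control arrays (log2 0.79 ± 0.10, adjusted p = 0.00259 by limma). These 4 genes also passed when each array in turn was left out, a fit in which the lone array of a group is taken to vary like the other group. They did not pass without moderation (adjusted p of 0.145 to 0.210).

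Rps6, the small subunit protein phosphorylated by S6 kinases downstream of mTOR, had 1978 and 1785 in knockout arrays, against 1292 and 1194 in control arrays (log2 0.59 ± 0.11, adjusted p = 0.00792 by limma). Its other probe set, at background, had 33.7 and 34.0 in knockout and 32.4 and 39.1 in control arrays and overlapped between groups. Rps27l, a paralog of Rps27 and a p53 target, had 4938 and 4891 in knockout arrays, against 3675 and 3722 in control arrays (log2 0.41 ± 0.09, adjusted p = 0.0195 by limma). Its 3 probe sets gave folds of 1.33, 1.38 and 1.40. Rps7, which can bind the p53 ubiquitin ligase MDM2, had 6122 and 6087 in knockout arrays, against 4727 and 4732 in control arrays (log2 0.37 ± 0.09, adjusted p = 0.0285 by limma). Its other probe set had 4753 and 5052 in knockout arrays, against 4234 and 4191 in control arrays, and was not called (log2 0.22 ± 0.10, adjusted p = 0.180 by limma across all probe sets). Rpl8, a large subunit protein near the peptidyl transferase centre, had 6075 and 6134 in knockout arrays, against 4764 and 4866 in control arrays (log2 0.34 ± 0.09, adjusted p = 0.0374 by limma). With the brightest probe sets of both genes the arrays of a group lay close together and the groups did not overlap. Rps19bp1, a nucleolar protein that binds RPS19 and activates SIRT1 in human cells, had 786 and 614 in knockout arrays, against 500 and 489 in control arrays (log2 0.48 ± 0.13, adjusted p = 0.0382 by limma). The call of Rps27 (68.1 and 69.7 in knockout, 48.4 and 53.4 in control arrays) was made near background, with the only probe set of this gene (log2 0.35 ± 0.10), and was lost when all probe sets were adjusted together (adjusted p = 0.0508 by limma). Rps6 was not called without control replicate 2 (adjusted p = 0.0601), and Rps27l, Rps7, Rpl8, Rps19bp1 and Rps27 lost their calls when knockout replicate 1 or either control array was left out (adjusted p of 0.0653 to 0.225 by limma). Without knockout replicate 2, Rps7, Rpl8 and Rps27 were lost too (adjusted p of 0.0623 to 0.101 by limma).

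The measured proteins of the 5S particle and the stalk did not pass the test. Rpl11, which forms the 5S particle with Rpl5 and restrains MDM2, had 7694 and 7732 in knockout arrays, against 6995 and 6974 in control arrays (log2 0.14 ± 0.09, adjusted p = 0.335 by limma). The stalk protein Rplp0 had 8820 and 9580 in knockout arrays, against 8514 and 8314 in control arrays (log2 0.13 ± 0.10, adjusted p = 0.421 by limma). Its partner Rplp2 had 8991 and 9688 in knockout arrays, against 7920 and 8001 in control arrays (log2 0.23 ± 0.10, adjusted p = 0.144 by limma). For all 3 genes both knockout arrays were above both controls. Rpl19 and Rpl7 came closest to the threshold, with log2 differences of 0.30 ± 0.09 each and adjusted p-values by limma of 0.0601 and 0.0607. Just inside it stood Rps27 at 0.0417.

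A few members had differences near or below 0. Rps29, of the small subunit, had 8663 and 8898 in knockout arrays, against 9327 and 9272 in control arrays (log2 -0.08 ± 0.09, adjusted p = 0.596 by limma). Rps4l, a paralog of Rps4x, had 331 and 298 in knockout arrays, against 358 and 365 in control arrays (log2 -0.19 ± 0.10, adjusted p = 0.235 by limma). In these 2 genes both knockout arrays lay below both controls, although neither passed the test, and the dimmest probe set of Rps29 gave 0.04. Rps4x had 8283 and 8409 in knockout arrays, against 8360 and 8336 in control arrays, and Rpl10a, of the large subunit, had 7537 and 7646, against 7548 and 7585. In both, as in Rps20 with its brightest probe set (log2 -0.01 ± 0.09), the groups overlapped. Fau, a ribosomal protein gene outside the symbol rule, did not pass either, with 6532 and 6853 in knockout arrays, against 6948 and 6976 in control arrays (log2 -0.06 ± 0.10).

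Paralogs were compared gene by gene, since levels of different probe sets cannot be set against each other. Rpl22 had 7814 and 7463 in knockout arrays, against 7091 and 6846 in control arrays (log2 0.13 ± 0.10), beside the 0.79 of Rpl22l1. Rpl7 gave 0.30 ± 0.09 and its relative Rpl7l1 0.26 ± 0.13, each with its brightest probe set. The further probe sets of Rpl7 were both called higher (log2 0.37 ± 0.10 and 0.41 ± 0.10, adjusted p = 0.0342 and 0.0262 by limma across all probe sets). Another probe set of Rpl7l1, nearly as bright, had 874 and 707 in knockout arrays, against 501 and 457 in control arrays, and was called higher (log2 0.70 ± 0.13, adjusted p = 0.0101 by limma across all probe sets). Its dimmest one was called too (log2 0.48 ± 0.13). The testis form Rpl39l had 86.0 and 85.5 in knockout arrays, against 90.3 and 83.1 in control arrays, and Rpl39 itself had 142 and 167, against 139 and 146. The striated muscle form Rpl3l had 47.4 and 57.3 in knockout arrays, against 38.8 and 55.6 in control arrays. Groups overlapped in these 3 genes, and all 3 were dim, the standard Rpl39 included. Rpl37 (29.5 ± 1.46 in knockout and 24.8 ± 1.20 in control arrays, SD) and Rps16 (at most 25.9) had only probe sets near background.

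The probe sets of a single gene did not always differ between groups by a like amount. For 24 members with several probe sets, 3 had the brightest one called at the level of probe sets, and 11 more had only another one called. Of all 9010 genes with several probe sets, 15.4% had the brightest one called higher and 5.98% only another one. Rpsa, the laminin receptor precursor and a small subunit protein, is the clearest example. Its bright probe set had 10459 and 10684 in knockout arrays, against 8964 and 8394 in control arrays, a 1.22-fold difference. Its other probe set had 811 and 585 in knockout arrays, against 252 and 198 in control arrays, a 3.10-fold difference. Neither pair of groups overlapped.

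Rps3, a small subunit protein at the mRNA entry channel, had 10095 and 10409 in knockout arrays, against 9910 and 9629 in control arrays, with its bright probe set. Another of its probe sets had 1636 and 1169 in knockout arrays, against 573 and 542 in control arrays, 2.52-fold higher. The third lay at background and was lower in both knockout arrays (26.5 and 22.3, against 33.2 and 36.5). Rps20, of the small subunit head, had 8225 and 8001 in knockout arrays, against 8199 and 8105 in control arrays, with its brightest probe set. A dim one had 297 and 270 in knockout arrays, against 90.1 and 133 in control arrays, and another had 622 and 419, against 231 and 218. Only the brightest set overlapped between the groups among these 3. The remaining one, also bright, had 7209 and 7099 in knockout arrays, against 7227 and 7288 in control arrays. In it both knockout arrays lay slightly below both controls. Rps18 gave 1.15-fold with its brightest probe set and 1.93-fold with one of 884 and 734 in knockout arrays, against 423 and 417 in control arrays.

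**Figure D2:**
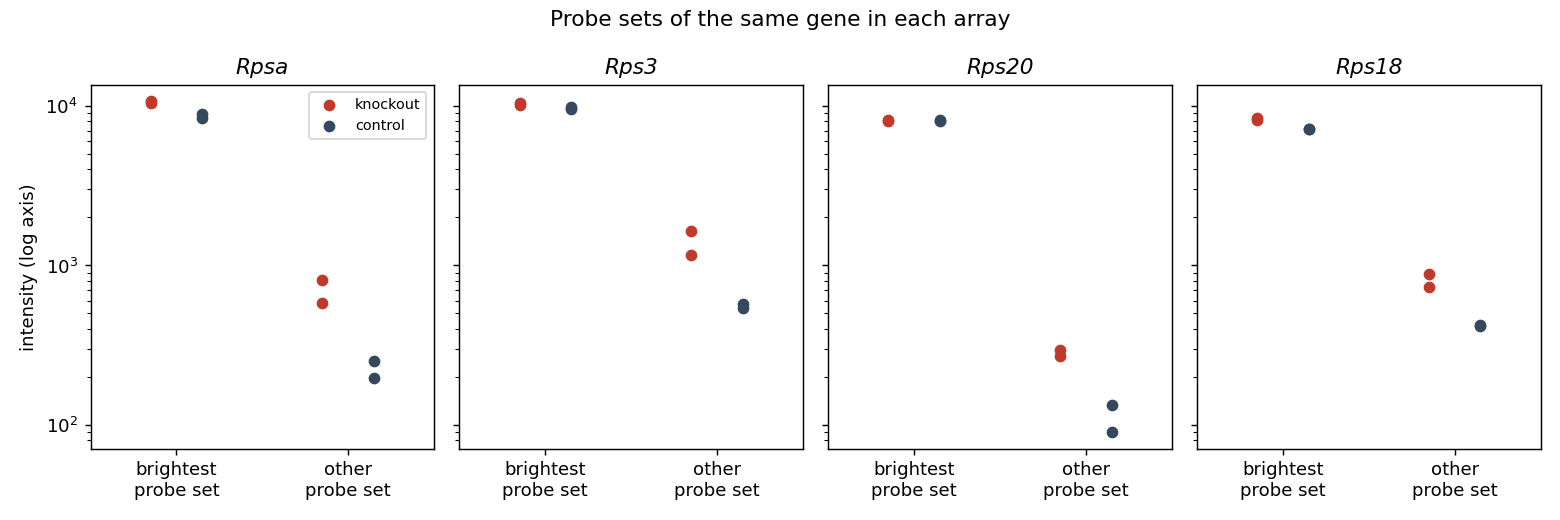
Intensity (log axis) of the brightest and of another probe set of Rpsa, Rps3, Rps20 and Rps18, with 2 knockout points left of 2 control points for each. The other probe sets were 1.93- to 3.10-fold higher in the knockout, and the brightest ones at most 1.22-fold.

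The difference was tested as such, by limma on the log2 ratio of each further probe set to the brightest one of its gene, over 16752 probe sets of all genes. This test was added after the data had been seen. Of 56 further probe sets of members, 6 rose more than the brightest one, against 2.34% over all genes, and 0 rose less, against 2.2%. They belonged to Rpsa (1.27 ± 0.19, adjusted p = 0.0272), Rps3 (1.22 ± 0.18, 0.0286), Rps20 (1.26 ± 0.18 and 1.14 ± 0.18, 0.0268 and 0.0315), Rps18 (0.71 ± 0.13, 0.0449) and Rpl13a (0.57 ± 0.11, 0.0433), all p by limma. Dim probe sets of Rpl35 (0.68 ± 0.16) and Rpl41 (0.77 ± 0.19 and 0.70 ± 0.18) had positive differences and did not pass (adjusted p of 0.0705 to 0.0856 by limma). The probe set of Rps6 at background had a negative one and did not pass either (-0.64 ± 0.14, adjusted p = 0.0624 by limma). With a pseudocount of 1 the count was 0 and with 64 it was 7, with 1 more that rose less, against 0.275% and 4.35% over all genes. Leaving out knockout replicate 1 or either control array gave 1, against 0.561% to 0.74%.

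Member probe sets of middle intensity were called higher most often. Of all 106 member probe sets, 72 had a mean over 2000, and 11 of these (15.3%) were called higher, against 15.7% of all probe sets of that level, with a median log2 difference of 0.19. Of 19 with means of 200 to 2000, 14 (73.7%) were called higher, against 20.5%, with a median of 0.70. Of 15 under 200, 4 (26.7%) were called higher, against 4.74%, with a median of 0.12. The limits of 200 and 2000 were chosen after the values had been seen. The genes of the largest rises, Rps25, Rpl14 and Rpl12, each had a single probe set, of the middle range, and so could not be compared with a brighter one. Over all genes, further probe sets of 200 to 2000 beside a brightest one over 2000 had a median ratio change of 0.01, and 1.85% of 1409 rose more than the brightest. In members the same kind had a median of 0.70, and 4 of 10 rose more. Which part of the transcript each probe set covers was not analysed here, and whether bright probe sets were near the top of their range was not tested.

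**Figure D3:**
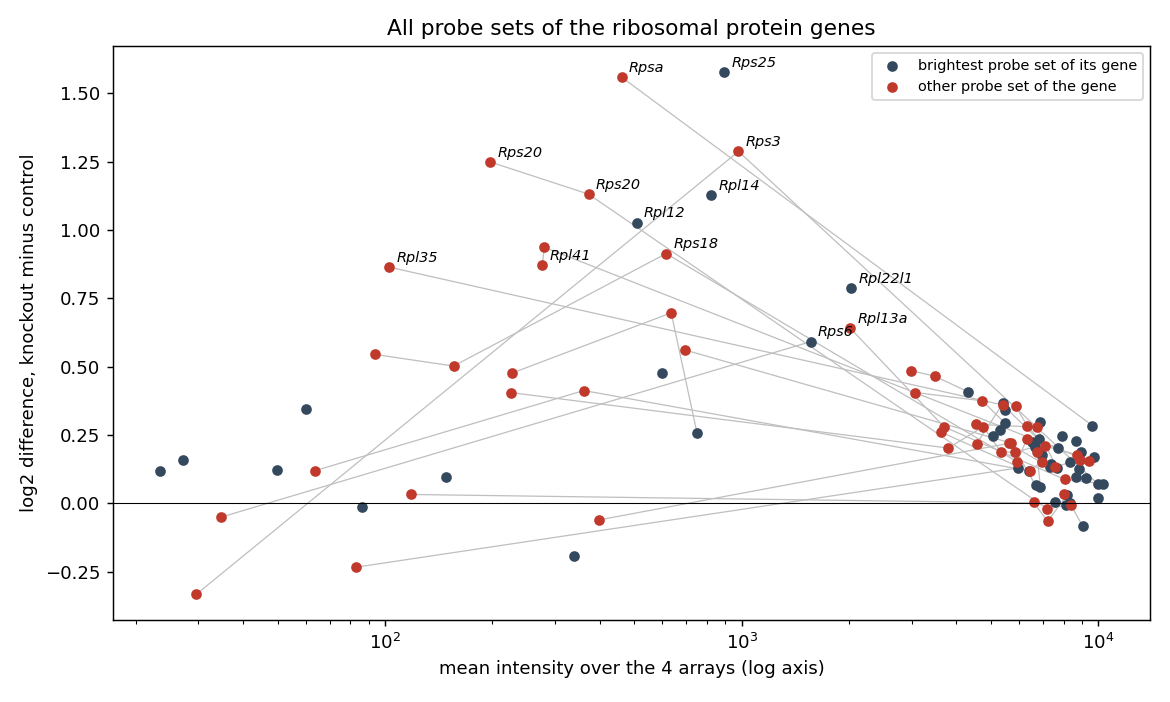
Log2 difference, knockout minus control, of the 106 probe sets of the 50 genes against their mean intensity over the 4 arrays (log axis), with grey lines joining probe sets of 1 gene. Probe sets over 2000 crowd between -0.08 and 0.79, and those of 200 to 2000 reach 1.58.

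A further 110 probe sets matched several genes, ribosomal protein genes among them, and were not given a name. Of these 27 were higher (24.5%) and 2 lower (1.82%), against 10.9% and 9.09% of all probe sets. Both knockout arrays lay above both controls in 99 of the 110, against 14206 of all 45037 probe sets. The median log2 difference of the 110 was 0.18, beside 0.21 for the 106 probe sets of 1 gene. Many of these probe sets share targets, so the counts are not of independent measurements.

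RefSeq places snoRNA genes, whose products guide rRNA modification, inside 15 of the 50 members. With the brightest probe set 1 of these 15, Rpl12, rose, against 20% of all members and 13.4% of all genes. Rpsa, Rps3, Rps20 and Rpl13a, also among the 15, had only another probe set called higher. They belong to the 11 of 24 members with several probe sets for which this held, against 5.98% of all such genes. The rest of the 11 (Rps18, Rps9, Rpl7, Rpl7l1, Rpl27, Rpl35 and Rpl41) have no snoRNA gene inside.

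Among genes that work with the ribosome, those of its assembly were also higher in the knockout. Of 57 measured ribosome biogenesis genes 43 rose (75.4%) and 0 fell, against 13.4% and 10.9% of all genes, with a median log2 difference of 0.69. Utp20 of the small subunit processome had 1613 and 1400 in knockout arrays, against 568 and 508 in control arrays, and Nhp2, a core protein of pseudouridylating snoRNPs, rose by 1.27 ± 0.12 on the log2 scale. In the mitochondrial ribosome 41 of 76 protein genes rose (53.9%) and 3 fell (Mrpl23, Mrpl27 and Mrpl42), with a median of 0.41. Both knockout arrays were above both controls in 58 of the 76 (76.3%), against 32.7% of all genes. Mrps11 had 473 and 477 in knockout arrays, against 228 and 223 in control arrays, and Mrpl23 had 1117 and 1048, against 1994 and 1901. Of 37 translation factors 15 rose (40.5%) and 1 fell, with a median of 0.27. The initiation factor subunits Eif3d (0.87 ± 0.11), Eif2b3 (0.97 ± 0.13), Eif3b (0.77 ± 0.10) and Eif2s3x (0.63 ± 0.09) rose. The elongation factors Eef1a1 (0.02 ± 0.10) and Eef2 (0.02 ± 0.10) did not pass the test, while Pabpc1 of the same list rose (0.34 ± 0.10). These lists were not tested against each other, and the intensity range of their probe sets differs from that of the ribosomal proteins.

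**Figure D4:**
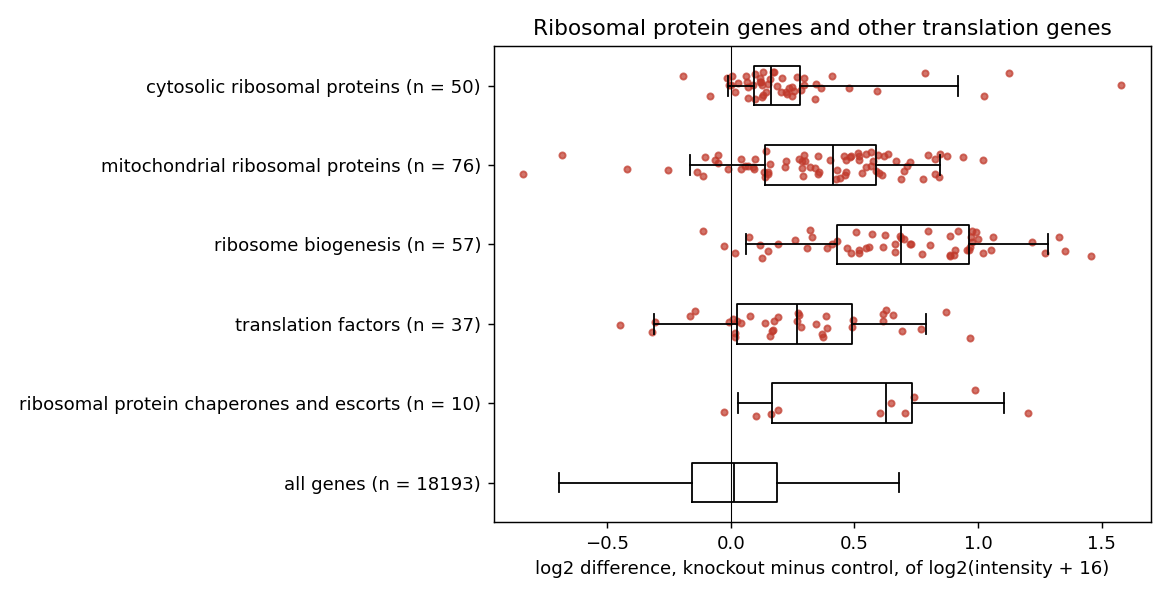
Log2 difference, knockout minus control, of the genes of 5 lists and of all genes, with 1 point per gene, boxes from the 25th to the 75th percentile with the median, and whiskers from the 5th to the 95th percentile (all genes without points). The medians are 0.16 for cytosolic ribosomal proteins, 0.41 for mitochondrial ones, 0.69 for ribosome biogenesis and 0.01 for all genes.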

How the data were processed

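Per the labels' protocols, EDTA released the crypts, a 70 um filter separated them, and Trizol RNA was labelled with biotin for Affymetrix arrays. The table holds linear intensity values deposited by the authors, with a floor of 1; how probes were summarised, corrected and normalized is not given in the sources used here. Columns were matched to samples by their identifiers. Symbols came from GEO's platform annotation, updated from RefSeq (GRCm38.p6) for 18032 of 18193 genes. Probe sets with several genes (932) or none listed (9160) stayed out of the gene fit. A gene was read with the probe set of highest mean. Log2(intensity + 16) was fitted with limma 3.58.1 in R 4.3.3 (lmFit, eBayes, no block, 7.02 degrees of freedom). With 2 arrays against 2, an exact permutation test cannot go below 0.333. The number of arrays limits precision. The fit was checked on simulated data, in 10 draws with 200 changed genes among 18193. It recovered 24.8% of 1.5-fold, 91.3% of 2-fold and 99.7% of 4-fold changes, with 5.71% of calls false. In the data 4434 genes (24.4%) were called, far more than the 200 changed in each draw. The adjusted threshold depends on that share, so these rates need not hold for the data. Smaller differences, like those of most members, were not simulated, and a gene that did not pass may still differ. Members and lists were chosen with earlier results of these data known. Genes named were the called members, the 6 highest and 6 lowest differences, fixed functional members and paralog pairs, and up to 4 genes of each comparison list with the smallest p. Other genes, among them Rps3, Rps18, Rpl13a, Rpl35, Rpl41, Rpl19, Eef1a1, Eef2, Mrpl23, Mtor, Tia1 and Mki67, were chosen after their values were seen. Alternatives covered pseudocounts, filter, scaling, prior, probe set choice, replicate block and each array left out.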

Additional observations from a re-analysis of the deposited data

How the results depend on the processing

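Of 50 ribosomal protein genes, 10 were called higher and 0 lower. The count of lower calls stayed 0 under every alternative run. The count of higher calls was 24 with a trended and robust prior (14.5% of all genes), 0 without moderation (0.011%), 19 with the mean of all probe sets of a gene (13.3%), 5 with a 1.5-fold minimum (6.9%), and 4 to 7 with 1 array left out (6.26% to 12.6%). Under the other alternatives it was 7 to 15 (9.61% to 22.3%). The median log2 difference of 0.16 was 0.24 with the dimmest probe set, 0.25 with the mean of all probe sets, 0.25 without probe sets of suffix x or s, whose oligonucleotides may bind other transcripts, and 0.15 to 0.20 with 1 array left out. Rps6 turned to -0.050 with its dimmest probe set. Rps20 turned to 1.25 with its dimmest probe set, 0.59 with the mean of its probe sets and 1.13 without suffix x or s. Of 421 values of named genes under alternatives, 366 kept their side of the threshold, 14 of these with a change of sign in genes that were not called. The causes were not tested. Replicate numbers shared between groups are not said to mark a shared animal, and the deviations of equally numbered arrays correlated at 0.099. With the replicate block 10 members were higher and 0 lower, and 4 further probe sets rose more than the brightest of their gene, in place of 6. Dim members such as Rps16 and Rpl37 were limited by background.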

Other observations

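Of 10 measured genes that escort ribosomal proteins to the assembling ribosome, 6 rose in the knockout and 0 fell, against 13.4% and 10.9% of all genes, with a median log2 difference of 0.63. Nap1l1, a histone chaperone, had 3132 and 2907 in knockout arrays, against 1317 and 1290 in control arrays. Heatr3, which takes part in the nuclear import of RPL5 in human cells, had 1192 and 1002 in knockout arrays, against 559 and 527 in control arrays. Pdcd2, a chaperone of RPS2 in human cells, and its relative Pdcd2l rose by 0.65 ± 0.10 and 0.71 ± 0.09 on the log2 scale (moderated SE, 2 arrays per group).

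Of 14 measured regulators of mRNAs with a pyrimidine tract 2 rose (14.3%, near the 13.4% of all genes) and 0 fell, with a median of 0.17. Larp1, which binds the cap of these mRNAs, rose by 0.40 ± 0.10 and Rheb, an activator of mTOR, by 0.45 ± 0.10. Tia1, an RNA-binding protein, had 825 and 640 in knockout arrays, against 1019 and 863 in control arrays, and did not pass (adjusted p = 0.128 by limma). Mtor stood at 1100 and 1206 in knockout arrays, against 1064 and 1336 in control arrays.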
